A study of Mus musculus with 2 samples.

Results

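The 10 genes described here encode parts of the angiotensin, endothelin and adrenomedullin systems: Agtr1a, Ace, Edn1, Ednra, Ednrb, Calcrl, Ramp1, Ramp2, Ramp3 and Adm. They were chosen by name, as members of these systems, and are 10 of the 32183 genes counted. All 10 were detected in both libraries. RNA was counted in single cells dissociated from 2 mouse sympathetic ganglia of the abdomen, the celiac and the superior mesenteric, whose neurons supply gut, spleen and other abdominal organs. The tissue was digested and triturated, and 2 libraries were made with 10x Genomics 3' chemistry. The libraries form 1 group with no treatment, genotype or strain named in the labels. The series text gives 20 animals, 7 to 8 weeks old, with as many of each sex, and nothing states which animals went into which library. The question was therefore in which cell classes of the ganglion each gene was found, and at what level.

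Angiotensin II is cut from its precursor by angiotensin-converting enzyme, the product of Ace, and acts mainly through the type 1 receptor, of which Agtr1a encodes the principal mouse form. In sympathetic ganglia this receptor is known to raise neuronal excitability, and in vessels it drives contraction. Endothelin-1, from Edn1, is a constrictor peptide of endothelium that acts on the receptors Ednra, known from smooth muscle, and Ednrb, known from endothelium and from glia of neural crest origin. Adrenomedullin, from Adm, dilates vessels and binds the receptor Calcrl, which reaches the cell surface only with a partner of the Ramp family. With Ramp1 it forms the receptor for calcitonin gene-related peptide (CGRP), and with Ramp2 or Ramp3 a receptor for adrenomedullin.

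Promoter stretches are shown for Edn1, Ramp3 and Calcrl, since these are the members with the largest rise in blood endothelial cells below. The bases come from RefSeq on GRCm38, run 5' to 3' on the gene's strand, and lie within the 250 bases before the start site, stopping where an annotated exon begins. They are chr13:42301226-42301475 on the plus strand for Edn1, chr11:6658283-6658520 on the plus strand for Ramp3 and chr2:84425412-84425516 on the minus strand for Calcrl. Capitals mark a match to the ETS motif.
Edn1: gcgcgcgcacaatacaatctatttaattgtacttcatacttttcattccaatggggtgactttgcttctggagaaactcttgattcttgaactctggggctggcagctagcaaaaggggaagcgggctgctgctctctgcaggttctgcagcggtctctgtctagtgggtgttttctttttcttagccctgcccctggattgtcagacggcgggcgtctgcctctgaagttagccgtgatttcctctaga
Ramp3: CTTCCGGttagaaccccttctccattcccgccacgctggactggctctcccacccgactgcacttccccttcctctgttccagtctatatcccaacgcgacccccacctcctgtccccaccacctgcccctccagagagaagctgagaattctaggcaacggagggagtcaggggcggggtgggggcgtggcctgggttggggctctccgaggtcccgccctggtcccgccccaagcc
Calcrl: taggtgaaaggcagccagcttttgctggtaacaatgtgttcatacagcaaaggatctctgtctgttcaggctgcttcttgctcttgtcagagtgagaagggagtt

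Promoters of 8 members were in the RefSeq table, and 6 motifs were searched on both strands of the 250 bases before the start. The ETS motif, CNGGAAG, matched in Ednra at -116, Ednrb at -133, Calcrl at -67 and Ramp3 at -250, against 26.6% of all 32851 promoters. The Calcrl match lies inside an annotated exon and is not printed. The TATA box, TATAAA, matched in Ace at -31, against 12.4% of all promoters. No match in the 8 was found for AP-1, spelled TGANTCA and held by 6.75% of all promoters, for the GATA factor motif, spelled AGATAA (9.99%), for the hypoxia response element, spelled ACGTG (16.6%), or for the CArG box (1.47%). No match of a motif overlapped one of another motif. Edn1, Ramp1 and Adm held no match to any of the 6, which says only that these letters are not in this window. The promoters of Agtr1a and Ramp2 were not analysed here.

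The libraries held 94521010 and 95235439 unique molecular identifiers (UMIs), and 12084 and 11641 cell barcodes were analysed. The libraries shared 64 barcode sequences. Cells were grouped without the 10 members, and the 13 classes carry the names of cells like those types by markers. Levels are counts per 1000000 (CPM) of the UMIs held back from grouping, summed per class, and are given as library 1 and then library 2. Satellite glia were the largest class, with 2935 and 2782 cells, and lymphatic endothelial cells the smallest, with 30 and 24. Summed markers of a class lay above those in every other class, but narrowly so among glia. The non-myelinating Schwann markers summed to 13663 and 14664 CPM in that class and to 10197 and 10982 CPM in satellite glia. A cluster of 2858 satellite glia had 0 markers of that class among its leading genes when set against the other glia. The 14 neuron markers summed to 14725 and 15259 CPM in neurons and to between 1270 and 3526 CPM elsewhere. UMIs of neuron marker genes were thus counted in all classes, and their source was not tested. Neuron barcodes were shallow, with median UMI counts of 2327 and 2370, while 2 deep neuron groups, here called Shox2-rich and Rxfp1-rich, had medians of 18465 to 23342. The Rxfp1-rich group held 358 and 335 CPM of Rxfp1 over the UMIs used for grouping. The Shox2-rich group held 187 CPM of Shox2 against 82.7 CPM of Rxfp1 in library 1, but 94.1 CPM of each in library 2, where shallower neuron groups held more Shox2. Names were given among the deep neuron groups not led by markers of other classes, and there it held the most Shox2 in both libraries. The others held 5.51 to 29.6 CPM in library 1 and 5.87 to 55.2 CPM in library 2. Since the classes come from the same suspensions, and the labels do not tie the libraries to animals, p-values measure only spread between these libraries, which may be technical. That spread was drawn mostly from all genes together. Its weight, as prior degrees of freedom, was 17.8 for blood endothelial cells, 183 between pericytes and smooth muscle cells and 288 over the 13 classes. Between arterial and venous cells the weight was infinite. A gene's own spread between libraries thus added little or nothing, and spread below means the fitted one.

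**Figure D1:**
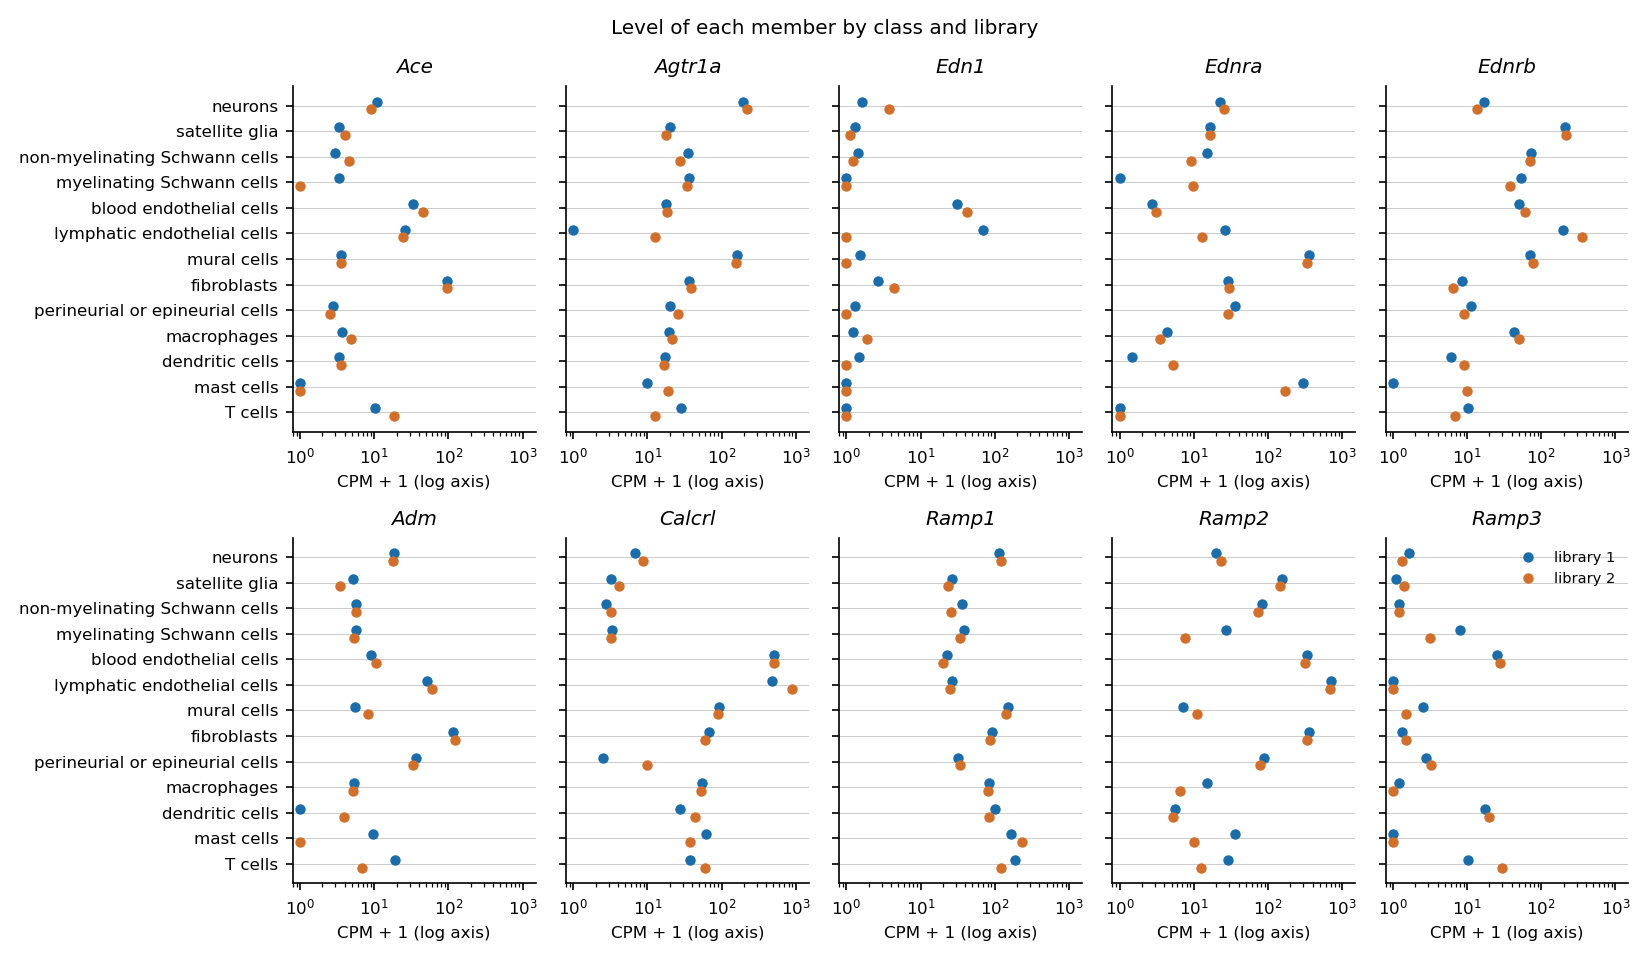
Level of each of the 10 genes in the 13 classes, in CPM on a log axis with 1 added; each point is 1 library. Agtr1a stands highest in neurons and mural cells, Ednra in mural and mast cells, Ednrb in satellite glia and lymphatic endothelium, and Ace and Adm in fibroblasts.

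Ace, which encodes the converting enzyme, lies at chr11:105967945-105989964 on the plus strand (GRCm38). Its level was 93.5 and 96.0 CPM in fibroblasts, 32.0 and 44.3 CPM in blood endothelial cells and 25.4 and 23.6 CPM in lymphatic endothelial cells, the last from 3 and 2 UMIs. Neurons held 9.82 and 7.96 CPM, and macrophages, Schwann cells, satellite glia, mural, dendritic and perineurial cells held between 0 and 3.88 CPM. Fibroblasts thus lay above endothelium in both libraries. In 1 fit over all classes, fibroblasts exceeded blood endothelial cells by 1.37 on the log2 scale (SE 0.10, adjusted p = 7.77e-33), while blood and lymphatic endothelium did not differ beyond their spread (1.03, SE 0.61). Shares of cells with a UMI were taken with each cell thinned to 3000 UMIs, and cells under that depth were left out, so the shares describe the deeper cells. Left out were 164 of 2298 and 244 of 2309 fibroblasts, 216 of 988 and 198 of 885 blood endothelial cells, 259 of 2935 and 368 of 2782 satellite glia, and 546 of 862 and 501 of 814 neurons. In the cells kept, 21.2% and 22.5% of fibroblasts held an Ace UMI, against 1.08% and 0.787% of satellite glia, a class taken as likely to lack the gene. Within blood endothelium the arterial, capillary-like and venous cells held between 24.9 and 49.7 CPM, and the arterial and venous cells did not differ beyond their spread (-0.17, SE 0.31). The 3 genes whose class pattern was most like that of Ace were Igfbp3 (r = 0.85), Cthrc1 (r = 0.84) and Chrm3 (r = 0.84), over 13 classes of the same libraries. An antisense gene, Gm11651, overlaps Ace. This gene and the other opposite-strand genes named below were counted as genes of their own. Whether counting used strand is not stated, and any part of their reads in the members' counts was not tested.

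Agtr1a, the angiotensin receptor gene, lies at chr13:30336441-30382867 on the plus strand. It stood at 195 and 219 CPM in neurons and at 160 and 157 CPM in mural cells, the contractile cells around vessels. Fibroblasts followed with 35.7 and 37.6 CPM, and all other classes lay between 0 and 35.5 CPM. Neurons exceeded mural cells by 0.20 (SE 0.09, adjusted p = 0.0443), and that call was lost without the filter on low counts, without the library block, without clusters led by other markers and with the Shox2-rich and Rxfp1-rich neurons alone (0.01). Mural cells exceeded fibroblasts by 1.97 (SE 0.10, adjusted p = 8.82e-55). The 3 genes of most similar class pattern were Iqsec3 (r = 0.93), Mark1 (r = 0.93) and Usp20 (r = 0.92). Agtr1a has a near-identical copy, Agtr1b, so reads could be split between them, and 17 and 14 UMIs were assigned to Agtr1b over all cells.

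Within mural cells Agtr1a was higher in pericytes than in smooth muscle. Pericytes, the mural cells of capillaries, held 388 and 372 CPM and smooth muscle cells 69.2 and 61.7 CPM, with no overlap between them. The difference was 2.33 on the log2 scale (SE 0.14, adjusted p = 7.39e-37). After thinning, 65.6% and 61.1% of pericytes held a UMI, against 15.9% and 17.1% of smooth muscle cells and 5.21% and 6.52% of macrophages, taken as a class likely to lack the gene. In neurons the level did not differ between the named populations beyond its spread, with 182 and 162 CPM in Shox2-rich and 169 and 222 CPM in Rxfp1-rich neurons (-0.23, SE 0.17). A UMI of Agtr1a was found in 89.3% and 90.6% of Rxfp1-rich and 62.5% and 74.6% of Shox2-rich neurons at full depth, and in 33.8% and 43.5% against 21.6% and 37.0% after thinning. A group of 34 neurons led by Ddr2, chosen after its values were seen, held 516 and 470 CPM.

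Edn1, which encodes the peptide endothelin-1, lies at chr13:42301476-42307990 on the plus strand. Its level was 30.1 and 41.5 CPM in blood endothelial cells. Lymphatic endothelial cells held 8 and 0 of the held-back UMIs, that is 67.8 and 0 CPM, and over all UMIs 6 of 30 and 1 of 24 cells held one, so no level can be read from them. Fibroblasts held 1.62 and 3.38 CPM, neurons 0.633 and 2.77 CPM, and all other classes under 1 CPM. The neuron value of library 2 came from 1 of 814 neurons, and that of library 1 from at most 3 of 862. Within blood endothelium the arterial cells carried it: 181 and 279 CPM, against 17.0 and 13.6 CPM in capillary-like and 9.0 and 13 CPM in venous cells. Arterial cells exceeded venous cells by 4.24 (SE 0.25, adjusted p = 1.4e-62). A UMI was found in 27.6% and 28.6% of thinned arterial cells and in 2.42% and 3.21% of venous cells. In satellite glia it was found in 1 of 2676 and 0 of 2414 thinned cells, and 0 of 2414 allows a share of cells with a UMI of up to 0.153% (exact binomial 95% bound). The genes most like Edn1 over the classes were Dll1, a Notch ligand (r = 0.97), Stap2 (r = 0.96) and Robo4, an endothelial receptor (r = 0.96). These r values include lymphatic endothelial cells at the mean of 67.8 and 0 CPM. An antisense gene, Gm47118, overlaps Edn1.

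Ednra, the type A endothelin receptor gene, lies at chr8:77663031-77724464 on the minus strand. It stood at 358 and 336 CPM in mural cells and at 298 and 171 CPM in mast cells, which rest on 34 and 19 UMIs. Perineurial or epineurial cells held 34.7 and 27.7 CPM, fibroblasts 28.0 and 29.2 CPM, and blood endothelial cells only 1.71 and 2.07 CPM. Mural cells exceeded mast cells by 0.65 (SE 0.21, adjusted p = 0.0133), a call lost with DESeq2, with the RLE size factors, with library totals alone and with doublets kept. Mast cells exceeded perineurial or epineurial cells by 2.80 (SE 0.30, adjusted p = 3.9e-17). The 12 mural markers summed to 61.4 and 53.9 CPM in mast cells, 6 of them at 0, against 20776 and 20668 CPM in mural cells. Mast cells held 113949 and 111302 held-back UMIs in all, and the part of mural RNA in their Ednra level was not tested. After thinning, 61.6% and 59.4% of mural cells and 14 of 25 and 9 of 25 mast cells held a UMI, with 25 and 22 mast cells left out as too shallow, against 1.06% and 0.815% of macrophages. Among the genes most like Ednra were Lamtor3 (r = 0.88) and Pdgfrb, a pericyte receptor kinase (r = 0.87). A gene on the opposite strand, 4933431K23Rik, overlaps Ednra.

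Pericytes held 369 and 311 CPM of Ednra and smooth muscle cells 356 and 369 CPM, so the ranges overlapped. The fit put pericytes lower by 0.30 (SE 0.10, adjusted p = 0.0165), but the ratio in library 1 had the opposite sign and the call was lost with DESeq2, with library totals alone and without the library block. Among neurons, Rxfp1-rich cells held 32.0 and 30.9 CPM from 29 and 21 UMIs, and Shox2-rich cells held 0 and 8.90 CPM from 0 and 5 UMIs. Shox2-rich neurons were lower by 2.85 (SE 0.58, adjusted p = 3.15e-05), and this call was lost with DESeq2. At full depth 37.3% and 45.3% of Rxfp1-rich neurons and 3.57% and 10.2% of Shox2-rich neurons held an Ednra UMI, with median depths of 23342 and 21082 against 18465 and 19953 UMIs. After thinning the shares were 10.8% and 3.23% against 0 of 51 and 1 of 54 cells, too few to order. Macrophages, taken as likely to lack the gene, held one in 1.72% and 1.75% of cells at median depths of 7828 and 7877 UMIs.

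Ednrb, the type B receptor gene, lies at chr14:103814625-103844402 on the minus strand. Satellite glia, which wrap neuronal cell bodies, held 208 and 218 CPM and lymphatic endothelial cells 195 and 354 CPM. These did not differ beyond their spread (-0.03, SE 0.22). Next came mural cells with 69.1 and 75.5 CPM, non-myelinating Schwann cells with 72.6 and 70.5 CPM, blood endothelial cells with 49.9 and 59.4 CPM and macrophages with 41.4 and 48.6 CPM. Satellite glia exceeded mural cells by 1.57 (SE 0.10, adjusted p = 4.99e-41), and non-myelinating Schwann cells exceeded blood endothelial cells by 0.26 (SE 0.11, adjusted p = 0.0299). Among mural cells, pericytes held 152 and 169 CPM and smooth muscle cells 44.3 and 33.1 CPM, a difference of 1.85 (SE 0.19, adjusted p = 8.03e-17). Capillary-like endothelial cells held 74.6 and 93.8 CPM, against 33.6 and 35.9 CPM in arterial and 32.5 and 38.0 CPM in venous cells. A UMI was found in 38.8% and 41.5% of thinned satellite glia, 16.4% and 16.8% of non-myelinating Schwann cells and 6.27% and 6.63% of macrophages. The genes most like Ednrb were Fam192a (r = 0.93), Zfp35 (r = 0.86) and Ly6g6d (r = 0.86).

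In neurons Ednrb stood at 16.1 and 12.8 CPM, and UMIs of satellite glia markers were counted in the same barcodes. The 226 neuron barcodes with Fabp7 and Paqr6 among their leading genes held 137 and 157 CPM, and the Shox2-rich, Rxfp1-rich and other deep neurons held between 0 and 3.71 CPM. Over all neurons the 10 satellite glia markers summed to 1158 and 969 CPM, none of them at 0, against 13096 and 12720 CPM in satellite glia. Ramp2 ran alongside, at 93.9 and 134 CPM in the same 226 barcodes and 3.31 to 7.12 CPM in the Shox2-rich and Rxfp1-rich neurons. The part of glial RNA in these neuron levels was not tested.

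Adm, which encodes the peptide adrenomedullin, lies at chr7:110627661-110629820 on the plus strand. Fibroblasts held 113 and 123 CPM, lymphatic endothelial cells 50.8 and 59.0 CPM from 6 and 5 UMIs, and perineurial or epineurial cells 35.6 and 32.7 CPM. Neurons held 17.4 and 17.0 CPM and blood endothelial cells 8.06 and 9.59 CPM. Fibroblasts exceeded lymphatic endothelial cells by 1.58 (SE 0.38, adjusted p = 0.000574), which was not called with library totals alone (1.11). Perineurial or epineurial cells exceeded neurons by 1.18 (SE 0.19, adjusted p = 2.36e-09). After thinning, 24.4% and 22.2% of fibroblasts held a UMI, against 1.76% and 0.829% of satellite glia. The genes most like Adm were Arsj (r = 0.88), Tspan11 (r = 0.88) and Fbxw8 (r = 0.87). Gm28863, an antisense gene, overlaps Adm.

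Calcrl, the receptor gene shared by adrenomedullin and CGRP, lies at chr2:84330626-84425411 on the minus strand. It was highest in endothelium, with 511 and 514 CPM in blood and 483 and 885 CPM in lymphatic endothelial cells, which did not differ beyond their spread (-0.07, SE 0.15). Mural cells followed with 89.9 and 89.5 CPM, fibroblasts with 66.3 and 58.7 CPM and macrophages with 53.1 and 51.6 CPM. Blood endothelial cells exceeded mural cells by 2.61 (SE 0.09, adjusted p = 1.92e-85), and mural cells exceeded fibroblasts by 0.38 (SE 0.11, adjusted p = 0.00271). All glial classes, neurons and perineurial cells stood between 1.5 and 8.85 CPM. A UMI was found in 65.5% and 66.2% of thinned blood endothelial cells and 0.673% and 0.580% of satellite glia. Elk3, an ETS-family repressor (r = 0.93), Gngt2 (r = 0.91) and Eng, the endothelial co-receptor endoglin (r = 0.90), were most like it over the classes.

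Calcrl was not even along the vessel tree. Venous cells held 546 and 587 CPM, capillary-like cells 525 and 484 CPM and arterial cells 331 and 348 CPM. Arterial cells lay below venous cells by 0.87 on the log2 scale (fitted difference -0.87, SE 0.12, adjusted p = 5.9e-11). In the mural layer smooth muscle cells lay higher, with 114 and 106 CPM against 40.5 and 60.3 CPM in pericytes (-1.31, SE 0.21, adjusted p = 1.47e-08).

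Ramp1, the partner that makes the CGRP receptor, lies at chr1:91179822-91225196 on the plus strand. Mast cells held 167 and 234 CPM from 19 and 26 UMIs, T cells 184 and 122 CPM from 20 and 21 UMIs, and mural cells 148 and 139 CPM. Neighbours in this order of 3 classes did not differ beyond their spread. Neurons followed with 111 and 120 CPM, dendritic cells with 99.7 and 83.6 CPM, fibroblasts with 89.3 and 84.2 CPM and macrophages with 83.5 and 79.4 CPM. Mural cells exceeded neurons by 0.50 (SE 0.10, adjusted p = 3.87e-06). The fit put neurons below dendritic cells (-0.25, SE 0.11, adjusted p = 0.0292), against the order of their CPM. Blood endothelial cells held 21.7 and 18.9 CPM. The genes most like Ramp1 were 4930532G15Rik (r = 0.94), Agap2 (r = 0.89) and Dock11 (r = 0.89).

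Ramp1 parted the mural cells in the direction opposite to Agtr1a. Smooth muscle cells held 203 and 197 CPM and pericytes 42.4 and 28.5 CPM, a difference of pericytes from smooth muscle of -2.70 (SE 0.20, adjusted p = 8.52e-28). After thinning, 40.1% and 44.9% of smooth muscle cells and 9.23% and 7.77% of pericytes held a UMI, against 5.70% and 5.68% of blood endothelial cells, taken as likely to lack the gene. In neurons the highest level was found in shallow barcodes: 355 and 360 CPM in 370 barcodes led by Mgst3, Psmb5 and Rab3a with a median of 2712 UMIs, but 81.0 and 81.9 CPM in Shox2-rich and 58.4 and 63.2 CPM in Rxfp1-rich neurons. The named populations did not differ beyond their spread (0.36, SE 0.25).

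Ramp2, a partner that makes an adrenomedullin receptor, lies at chr11:101246028-101259546 on the plus strand. Lymphatic endothelial cells held 695 and 684 CPM, fibroblasts 353 and 337 CPM, blood endothelial cells 336 and 310 CPM and satellite glia 152 and 145 CPM. Mural cells held only 6.1 and 9.89 CPM and dendritic cells 4.62 and 4.2 CPM. Lymphatic endothelium exceeded fibroblasts by 0.53 (SE 0.15, adjusted p = 0.00657; not called with DESeq2), fibroblasts exceeded blood endothelium by 0.15 (SE 0.06, adjusted p = 0.0398), and blood endothelium exceeded satellite glia by 1.20 (SE 0.07, adjusted p = 9.41e-48). After thinning, 58.5% and 58.1% of fibroblasts, 55.1% and 56.6% of blood endothelial cells, 32.7% and 31.4% of satellite glia and 2.65% and 2.67% of mural cells held a UMI. Satellite glia had been taken as the class likely to lack Ramp2, and with these shares they cannot serve as such. The gene Vps25 overlaps the 3' end of Ramp2 on the same strand, so reads there could belong to either. Sema6a (r = 0.93), Fgd5, an endothelial exchange factor (r = 0.91), and S100a16 (r = 0.90) had the most similar class pattern.

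Levels of Ramp2, Calcrl and Adm are given here by fibroblast group, with no test. Fibroblasts led by Cxcl1 and Ccl11 held 414 and 382 CPM of Ramp2, those led by Apod and Smoc2 416 and 402 CPM, and those led by C7 and C3 140 and 155 CPM. The same C7 group had 25.6 and 19.6 CPM of Calcrl, against 70.7 and 61.9 CPM and 76.3 and 67.7 CPM in the Cxcl1 and Apod groups, while its Adm level, 142 and 165 CPM, was above theirs, at 124 and 128 CPM and 96.7 and 102 CPM. A shallower group led by Egfros, with a median of 3431 UMIs, held 69.7 and 91.0 CPM of Ramp2 and 114 and 110 CPM of Calcrl.

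Ramp3, the other adrenomedullin partner, lies at chr11:6658521-6677475 on the plus strand. It was sparse, with 156 and 172 UMIs over all cells. Blood endothelial cells held 24.2 and 26.7 CPM, dendritic cells 16.6 and 18.5 CPM and T cells 9.18 and 29.0 CPM from 1 and 5 UMIs. T cells did not differ from either of the others beyond their spread, and dendritic cells exceeded the next class, myelinating Schwann cells, by 2.45 (SE 0.64, adjusted p = 0.000528). Within endothelium, arterial cells held 56.9 and 35.9 CPM, capillary-like cells 36.7 and 49.2 CPM and venous cells 9.0 and 11 CPM. Arterial cells exceeded venous cells by 2.07 (SE 0.39, adjusted p = 2.02e-06), a call lost with DESeq2. A UMI was found in 15.3% and 9.09% of thinned arterial and 10.5% and 13.2% of capillary-like cells, against 0.0374% and 0.166% of satellite glia. The genes most like Ramp3 were Kif11 (r = 0.88), Tgtp1 (r = 0.86) and Brwd3 (r = 0.86).

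**Figure D2:**
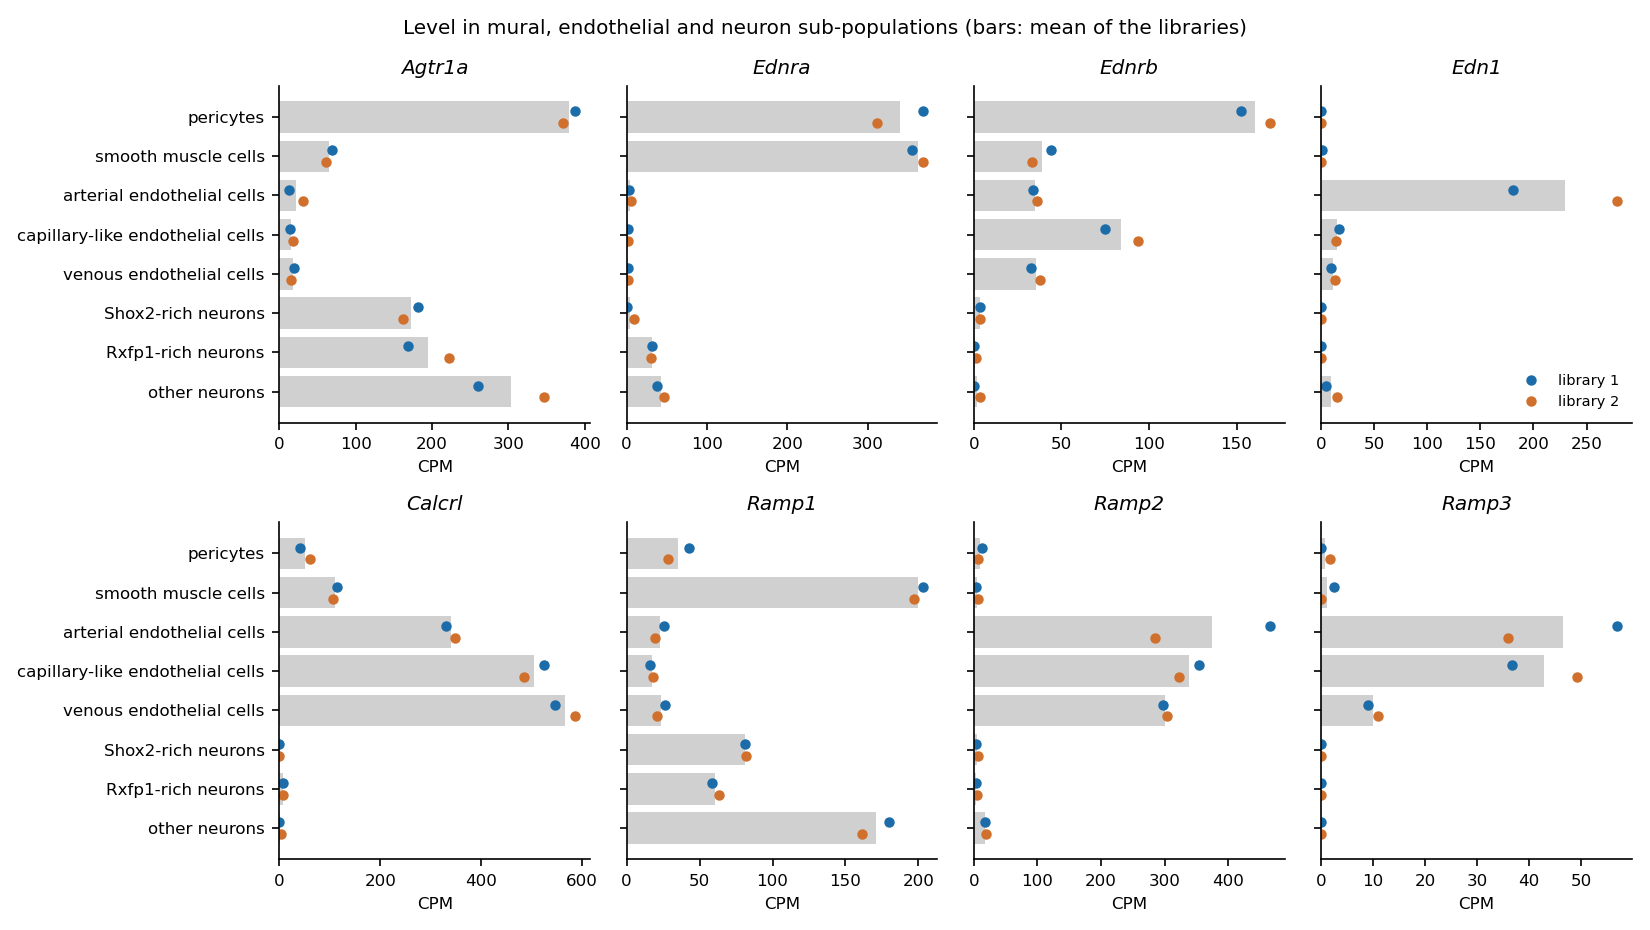
Levels of 8 of the genes in pericytes, smooth muscle cells, 3 kinds of endothelial cells and the neuron populations, in CPM; bars are means of the libraries, which start at 0, and each point is 1 library. Agtr1a and Ednrb stand higher in pericytes than in smooth muscle cells, and Ramp1 and Calcrl stand lower. Edn1 stands higher in arterial cells than in the other endothelial cells.

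Since a receptor needs Calcrl and a Ramp in the same cell, cells with UMIs of both were counted after thinning to 3000 UMIs. In blood endothelial cells, 265 of 772 cells (34.3%, exact binomial 95% interval 31.0 to 37.8) and 256 of 687 (37.3%, 33.6 to 41.0) held both Calcrl and Ramp2. Ramp2 was found in 52.4% and 56.3% of the cells with a Calcrl UMI and in 60.2% and 57.3% of those without. The share was lower with Calcrl than without in both libraries, so no excess of cells with both was seen at this depth. The intervals of these shares overlapped in both libraries. They treat cells as replicates, so their overlap is no test, and the difference in shares was not tested. Without thinning, and with the shallower cells included, Ramp2 was found in 76.2% (73.0 to 79.1) and 76.6% (73.3 to 79.7) of the cells with Calcrl and in 51.4% (44.5 to 58.3) and 48.4% (41.1 to 55.8) of those without. Cells differ in depth there, and its part in that gap was not tested. Calcrl with Ramp3 was found in 39 and 34 of these endothelial cells, and Calcrl with Ramp1 in 26 and 30.

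In smooth muscle cells 29 of 327 (8.87%, 6.02 to 12.5) and 26 of 287 (9.06%, 6.0 to 13) held both Calcrl and Ramp1. Ramp1 was found in 38.7% and 45.6% of those with Calcrl and in 40.5% and 44.8% of those without. In fibroblasts 9.47% and 8.52% held Calcrl with Ramp2. Without thinning, which also brings in the shallower cells (988 and 885 cells in place of 772 and 687), 59.8% and 60.3% of blood endothelial cells held Calcrl with Ramp2. These intervals and floors cover counting error only.

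**Figure D3:**
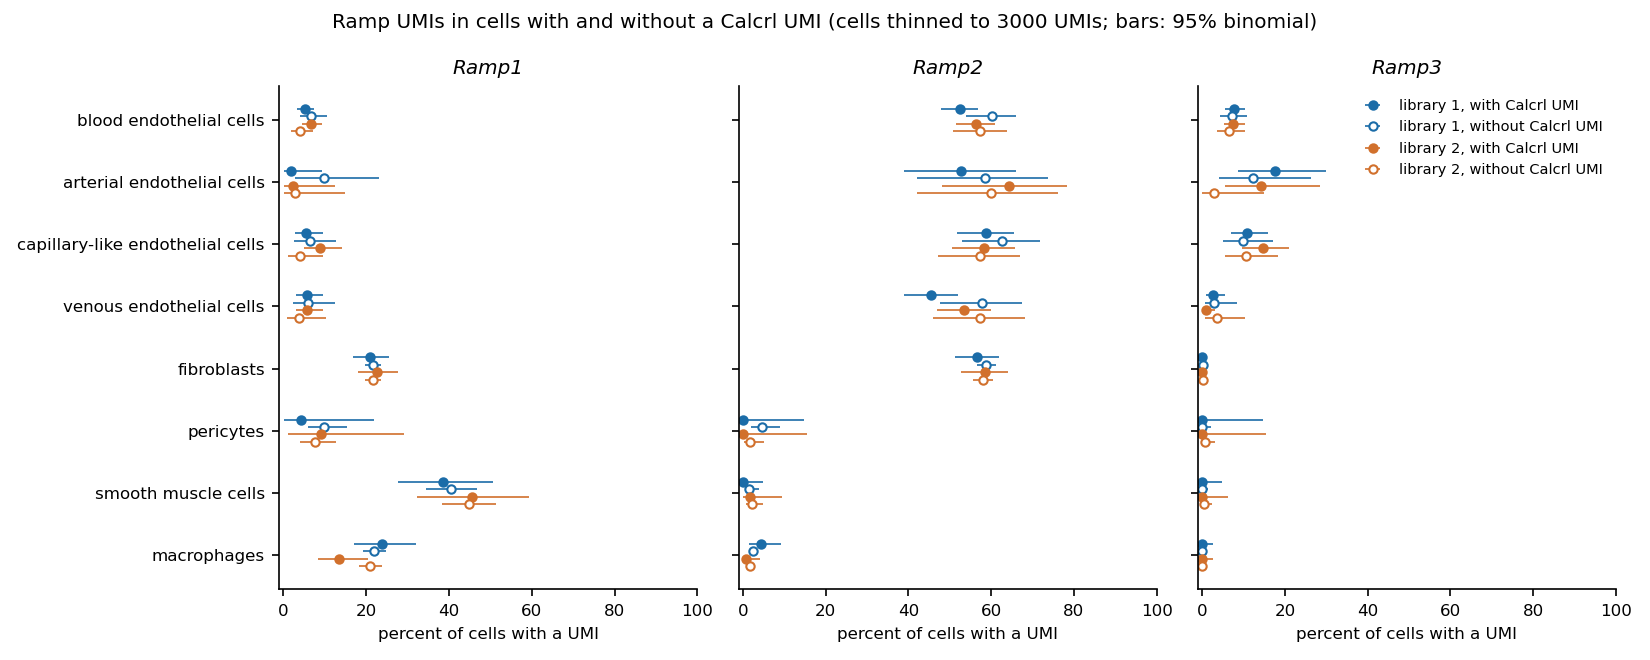
Share of cells with a UMI of a Ramp gene among cells with and without a Calcrl UMI, in percent, after thinning to 3000 UMIs; points are libraries and bars are exact binomial 95% intervals. In blood endothelial cells Ramp2 lies at 52.4% and 56.3% with Calcrl and 60.2% and 57.3% without.

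Each main class was then set against all other cells in 4 sums per comparison, and the 10 genes were counted against the share of all genes tested that passed the same rule (edgeR, adjusted p under 0.05). Over the 5 classes 20.8% to 35.6% of the genes tested rose and 25.7% to 38.6% fell, so a call alone does not set a gene apart. In neurons, 2 of the 10 members rose, against 33.3% of 18129 genes, and 8 fell, against 38.6%. The median over the members was -1.63 on the log2 scale, and -0.09 over all genes. Agtr1a rose by 2.62 (SE 0.08) and Ramp1 by 0.90 (SE 0.08), and Calcrl fell by 3.71, Ramp2 by 3.15 and Ednrb by 2.56. With the Shox2-rich and Rxfp1-rich neurons alone, the rise of Ramp1 was 0.07 and not called, which left 1 member higher. Edn1 in neurons rests on 2 and 8 UMIs and Ramp3 on 2 and 1, and the call of Edn1 was lost with DESeq2 and without the clusters led by other markers.

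In satellite glia, Ednrb alone rose, by 2.83 (SE 0.04), against 35.6% of 17767 genes. 8 members fell, against 38.2% of genes, from 5.05 for Calcrl to 1.11 for Ednra. Ramp2 was not called (0.02, SE 0.04, adjusted p = 0.612), at 152 and 145 CPM in satellite glia and 163 and 155 CPM in the rest, and was called higher with doublets kept (0.42). The member median was -2.47, against -0.01 for all genes tested.

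In blood endothelial cells 5 members rose, against 29.8% of 17855 genes. Edn1 rose by 5.36 (SE 0.18), Calcrl by 4.28 (SE 0.05), Ramp3 by 4.24 (SE 0.19), Ramp2 by 1.43 (SE 0.05) and Ace by 0.82 (SE 0.11). The other 5 fell, against 33.9% of genes, with Ednra lowest (-3.96, SE 0.22). Ednrb fell by 0.26 (SE 0.08, adjusted p = 0.00873), and that call was lost with DESeq2. Blood endothelium thus held the ligand gene Edn1, Calcrl and both adrenomedullin partners above the level in the sum of all other cells. Agtr1a and Ednra lay below that level. Such a sum does not rank the classes. In the class order above, Ramp2 stood higher in lymphatic endothelial cells and in fibroblasts than in blood endothelium. Ramp3 in T cells and Calcrl in lymphatic endothelial cells did not differ from blood endothelium beyond their spread. The member median was 0.28, against -0.08 for all genes tested.

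In mural cells 4 members rose, against 20.8% of 17864 genes: Ednra by 4.51 (SE 0.07), Agtr1a by 2.23 (SE 0.08), Ramp1 by 1.48 (SE 0.08) and Calcrl by 0.43 (SE 0.09). Another 5 fell, against 25.7% of genes, among them Ramp2 (-4.21, SE 0.15). Edn1 rests on 1 and 0 UMIs in mural cells and Ramp3 on 3 and 1, and both calls were lost with DESeq2. Ednrb was not called (0.10, SE 0.09, adjusted p = 0.395). Its level in the other cells, 73.0 and 75.6 CPM, lay between those of smooth muscle cells and pericytes. The member median was -0.83, against -0.10 for all genes tested.

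In fibroblasts 4 members rose, against 33.7% of 17704 genes: Adm by 4.10 (SE 0.07), Ace by 4.0 (SE 0.07), Ramp2 by 2.04 (SE 0.05) and Ramp1 by 1.02 (SE 0.05). Ednrb, Ramp3 and Edn1 fell, against 35.6% of genes, and Edn1 lost its call with DESeq2 and without the library block. Agtr1a (0.04), Calcrl (0.01) and Ednra (0.16) were not called. With library totals in place of the trimmed mean of M-values (TMM), the median of all genes moved from -0.02 to -0.35 in fibroblasts, and these 3 turned to -0.28, -0.31 and -0.17. The member median was 0.10, against -0.02 for all genes tested. The same change moved that median by -0.22 in blood endothelial cells, -0.14 in mural cells, -0.12 in satellite glia, 0.13 in neurons, 0.21 between pericytes and smooth muscle cells and 0.13 between arterial and venous cells. The genes called over the whole table then numbered 3489 higher and 9302 lower in fibroblasts, 4089 and 7782 in blood endothelial cells and 2832 and 5360 in mural cells.

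**Figure D4:**
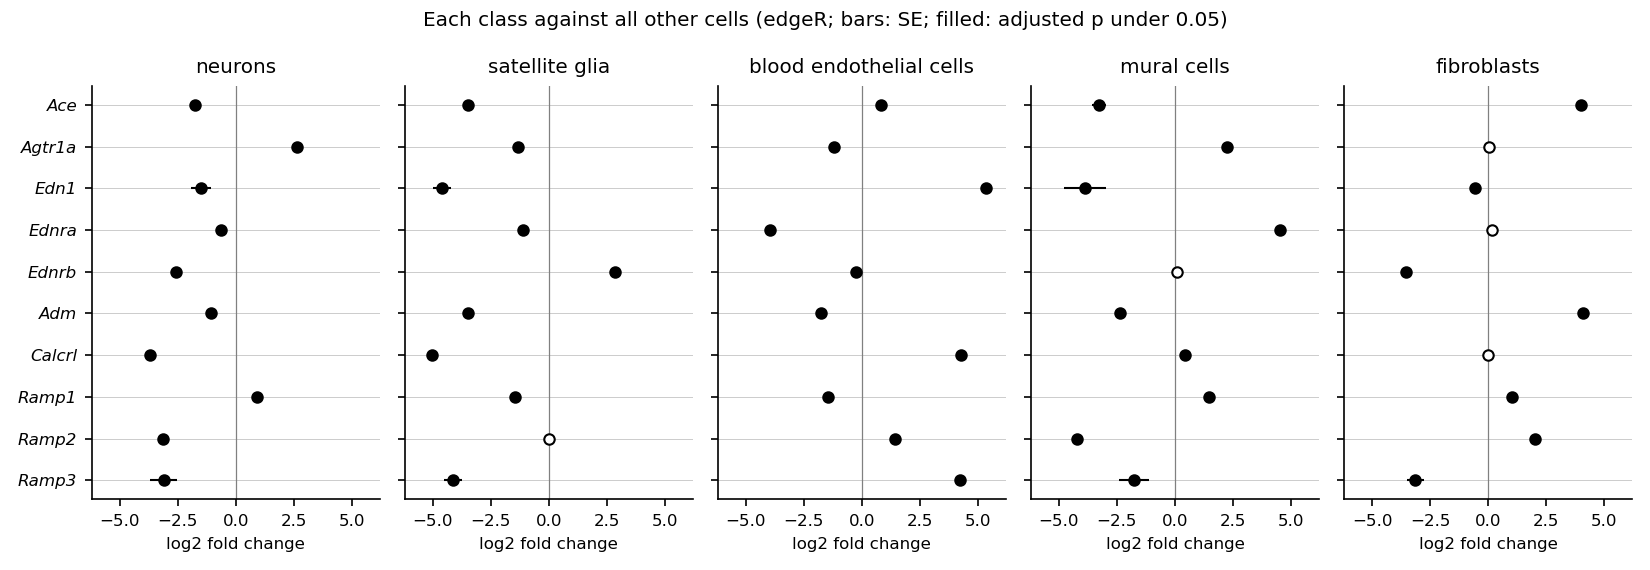
Log2 fold change of each of the 10 genes in 5 classes against all other cells, with bars of 1 SE and filled points for an adjusted p under 0.05 (edgeR). The sets of rises differ between classes but overlap. Agtr1a and Ramp1 rise in both neurons and mural cells, and Ace and Ramp2 in both blood endothelial cells and fibroblasts. The largest rise of a class runs from Agtr1a at 2.62 in neurons to Edn1 at 5.36 in blood endothelial cells.

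Within classes fewer genes passed. Between pericytes and smooth muscle cells, 5 members had counts enough to test: 2 were higher in pericytes (Agtr1a and Ednrb), against 15.7% of 9302 genes, and 3 were lower (Ednra, Calcrl and Ramp1), against 17.3%. With library totals alone, 2126 genes were higher and 1142 lower, where TMM gave 1460 and 1606, and of the 5 only the call of Ednra was lost. Between arterial and venous cells, 9 members were tested: Edn1 and Ramp3 were higher, against 7.45% of 9898 genes, and Calcrl was lower, against 11.9%. With library totals alone, 1092 genes were higher and 947 lower, where TMM gave 737 and 1178. Between Shox2-rich and Rxfp1-rich neurons 3 members were tested, none was higher, against 5.93% of 8434 genes, and Ednra was lower, against 6.79%. At an unadjusted p under 0.05, and with DESeq2, none was higher there either.

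Over the 13 classes, each gene's levels were ordered and neighbours in that order compared, 12 pairs per gene. Of the 120 pairs 28 were called, against 36.7% of 1283958 pairs of classes over all genes, neighbours or not. Neighbours are the closest classes by construction, so that share is no measure for them. Ramp2 had 5 steps beyond the spread, Ednra and Ramp1 had 4 each, and Edn1 and Ramp3 had 1 each. Across the classes the members of highest correlation with each other were Edn1 with Calcrl (r = 0.73), Edn1 with Ramp2 (r = 0.71), Ace with Edn1 (r = 0.70) and Ace with Adm (r = 0.70), as a description of 13 classes that share both libraries. Those with Edn1 include its lymphatic endothelial value, which rests on UMIs of 1 library.

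Of 33 other genes of these systems, 18 belong to the renin-angiotensin list, 6 to the endothelin list and 9 to the CGRP and adrenomedullin list. The angiotensin precursor Agt was found at 167 and 187 UMIs over all cells, and renin, Ren1, at 0 in both libraries. The shares of all genes tested that rose or fell are those given above: 33.3% and 38.6% in neurons, 35.6% and 38.2% in satellite glia, 29.8% and 33.9% in blood endothelial cells, 20.8% and 25.7% in mural cells and 33.7% and 35.6% in fibroblasts. With 4 to 16 genes tested per list, nothing particular to a list is read from its counts. In neurons 7 of the 16 renin-angiotensin genes tested rose, against 33.3% of all genes, and 9 fell, against 38.6%. Enpep, which makes angiotensin III, fell by 3.41, and the peptidase Nln, neurolysin, rose by 1.66 to 68.1 and 75.1 CPM. In all 5 classes the genes that fell included Cma1, Mcpt4 and Cpa3, proteases of mast cells. Of the 4 endothelin genes tested, 3 rose in neurons: Ece2, an endothelin-converting enzyme, by 2.90 to 84.5 and 86.5 CPM, Ecel1, of the same enzyme family, by 2.83, and the ligand Edn3 by 1.13. Ece1 fell there by 1.72 but rose in blood endothelial cells by 1.88, to 235 and 249 CPM, and in satellite glia by 0.66. Pam, the enzyme that amidates peptides such as adrenomedullin, rose in neurons by 1.81, to 765 and 822 CPM. Nln, Pam, Edn3, Ece1 in neurons and Ackr3 in mural cells were chosen after their values were seen.

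Among mural cells 5 of the 16 renin-angiotensin genes tested rose and 6 fell. Enpep rose in mural cells by 2.89 and in blood endothelial cells by 2.10. Ackr3, a receptor that takes up adrenomedullin, rose in mural cells by 1.53 and was lower in pericytes than in smooth muscle cells by 3.22 on the log2 scale (-3.22, SE 0.36). In fibroblasts 7 of 15 renin-angiotensin genes rose and 5 fell, led by the peptidase Mme at 3.26 and Agt at 3.23, the latter at 12.7 and 12.5 CPM. In satellite glia 2 of these 15 rose and 10 fell, and in blood endothelial cells 1 rose and 8 fell. The counts for the endothelin list were 1 higher and 3 lower of 4 in satellite glia, 1 and 1 in blood endothelial cells, and 0 higher and 2 lower in mural cells and in fibroblasts. Beside the same shares of all genes, of the 4 CGRP and adrenomedullin genes tested 2 rose and 2 fell in neurons, 1 and 2 in satellite glia, 1 and 2 in blood endothelial cells, 1 and 1 in mural cells and 3 and 0 in fibroblasts. The medians over all pathway genes tested were -0.49 in neurons, -0.61 in satellite glia, -0.56 in blood endothelial cells, -0.20 in mural cells and 0.14 in fibroblasts.

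The peptides of the CGRP list were hardly detected. Calca had 10 and 21 UMIs over all cells, and Calcb, Iapp and Adm2 had 0 in both libraries. Between Shox2-rich and Rxfp1-rich neurons, Pam was lower by 1.61 on the log2 scale in the Shox2-rich cells (-1.61, SE 0.12, adjusted p = 7.91e-30), at 437 and 438 CPM against 1194 and 1374 CPM. The mast cell proteases Cma1 and Cpa3, which also cut angiotensins, stood at 23168 and 22875 CPM and at 17069 and 16469 CPM in mast cells. They were counted at 14.9 to 29.6 CPM and 5.13 to 16.4 CPM in neurons, satellite glia, blood endothelial cells, mural cells and fibroblasts where the 6 mast cell markers summed to between 27.4 and 178 CPM, so the part of mast cell RNA was not tested.

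**Figure D5:**
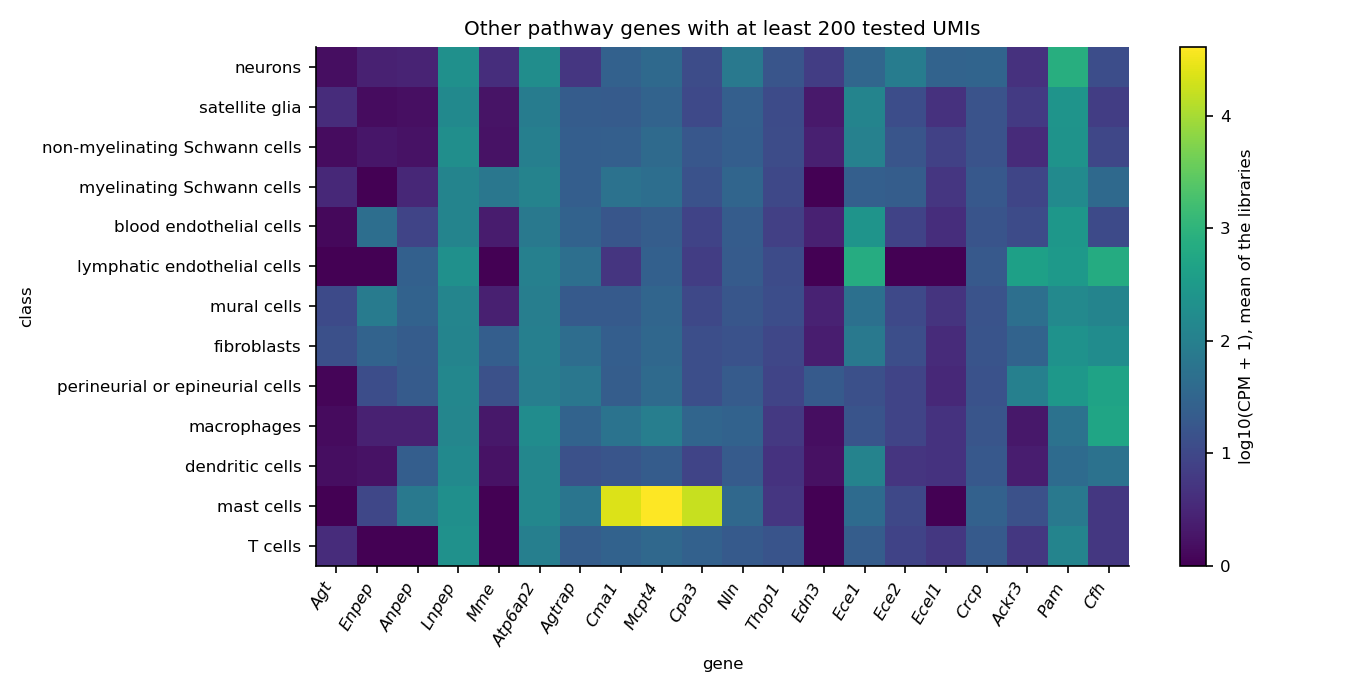
Mean level over the libraries of 20 other pathway genes with at least 200 UMIs, as log10 of CPM + 1 in colour, by gene and class. Among the classes Ece2 is brightest in neurons, and Cma1, Mcpt4 and Cpa3 in mast cells.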

How the data were processed

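Whole ganglia were measured in 2 single-cell libraries. The authors deposited UMI counts per gene and barcode, made with Cell Ranger 6.1.2; mm10 is listed with it, per the submitters' processing notes. The sources do not state whether strand or introns were used in counting. Barcodes held 1501 to 44898 UMIs and at most 10.0% mitochondrial UMIs as deposited; 1 barcode failed the filters of 500 genes, 1000 UMIs and 20% mitochondrial UMIs, and 510 and 637 doublets called by Scrublet (in scanpy) were removed. Each count was split at random in equal parts (0.5): one part served to cluster (scanpy 1.11.5, leidenalg 0.10.2, 3000 variable genes without the members and pathway lists, 30 components, 15 neighbours, resolution 1), the other gave the levels and tests, 44449909 and 43566873 UMIs. Classes were named from marker lists, and 24 clusters gave 13 classes and a rest of 57 and 55 unnamed cells. The unnamed cells stayed in the sums of all other cells.

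Sums per class and library were compared with edgeR 4.0.16 (R 4.3.3), using TMM, the quasi-likelihood test, the library as a block and Benjamini-Hochberg adjustment over all genes tested, at 0.05. The library number pairs a class with the cells it came from, since both share a suspension. With 4 sums a fit has 1 residual degree of freedom, and its spread is shared across genes. Tested on simulated data for neurons, it recovered 64.3% of 2-fold and 92.0% of 4-fold changes; for arterial against venous cells the shares were 38.9% and 83.9%, and for pericytes against smooth muscle cells 43.6% and 82.2%. False calls were 0.685% to 6.92% of the calls over all simulated comparisons. Only 200 genes were changed there and the spread was fixed. In the data 13049 of 18129 genes were called for neurons, so recovery and scaling under such wide change were not tested. Alternatives were DESeq2 1.42.0, RLE, library totals, no filter, no block, all UMIs, doublets kept and clusters left out; library totals, the Shox2-rich and Rxfp1-rich neurons alone and leaving out the shallow venous cluster were chosen after seeing the data. The genes named are the 10 members, the 3 most similar genes for each (Pearson's r of class levels, at least 200 UMIs) and, of the pathway lists, up to 3 called genes in each direction per comparison by size of change. Promoters and sequences came from RefSeq on GRCm38, and gene positions and overlaps from GENCODE on the same build. Some genes that these rules name are not reported here. The members and lists were chosen with earlier results of these data known.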

Additional observations from a re-analysis of the deposited data

How the results depend on the processing

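The 54 member comparisons called were refitted 455 times under the alternatives: 442 refits kept direction and call, 13 kept the direction and lost the call, and 0 changed direction. For the comparisons within classes, leaving out clusters led by other markers left the sums as they were, so those refits could not change. Ratios in single libraries are not among the refits, and there Ednra in pericytes against smooth muscle cells changed sign in library 1. DESeq2 called fewer genes: 7475 in satellite glia (13103 with edgeR), 7342 in blood endothelial cells (11373), 5083 in mural cells (8312), 7600 in fibroblasts (12266), 1035 between pericytes and smooth muscle cells (3066), 540 between arterial and venous cells (1915) and 306 between the neuron populations (1073). It left 3 members lower in mural cells (2732 of 17864 genes), 1 higher in arterial cells (190 of 9898) and 0 lower in Shox2-rich neurons (178 of 8434), where it also had 0 without adjustment and edgeR had 1 either way. With the Shox2-rich and Rxfp1-rich neurons alone, 1 member was higher in neurons (5345 of 18121 genes); with doublets kept, 2 were higher in satellite glia (5871 of 17790); with library totals, 5 were lower in fibroblasts (9302 of 17704); with all UMIs, 2 were lower in arterial cells (1470 of 11690).

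Some values changed sign under an alternative, to sizes of up to 0.61, and the cause was not tested. Ramp2 in satellite glia was -0.00071 with DESeq2, -0.00079 with RLE, -0.10 with library totals, -0.0051 with no filter and -0.083 without clusters led by other markers. With library totals, Ednrb in mural cells was -0.041, and in fibroblasts Agtr1a was -0.28, Ednra -0.17 and Calcrl -0.31. Calcrl in fibroblasts was also -0.026 with no filter, -0.081 with doublets and -0.093 without clusters led by other markers. Between arterial and venous cells, Agtr1a was -0.19 and Ednrb 0.61 with doublets, Ednrb was 0.12 with all UMIs, and without the shallow venous cluster Ramp1 was 0.41 and Ramp2 -0.024. Between blood and lymphatic endothelium, Edn1 was -0.017 with RLE and -0.18 with library totals. Calcrl in lymphatic against blood endothelium was 0.20 with DESeq2, 0.19 with RLE, 0.35 with library totals and 0.021 with no filter, and Ednrb in lymphatic endothelium against satellite glia was 0.18 with DESeq2, 0.18 with RLE and 0.30 with library totals. In single libraries, Ednra in pericytes against smooth muscle cells ranged from -0.24 to 0.050.

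Without the replicate block, the same Ednra difference was -0.30 and not called, Edn1 in fibroblasts lost its call, and 23 neighbour pairs were called in place of 28. Without thinning, 4 members in place of 8 had their highest share in the class of highest CPM; both Calcrl and Ramp2 were found in 59.8% and 60.3% of blood endothelial cells and 28.9% and 28.1% of fibroblasts, and Calcrl with Ramp1 in 32.6% and 25.2% of smooth muscle cells. The 54 lymphatic endothelial, 97 mast and 110 T cells limit what can be read from those classes.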
